A study of Mus musculus with 10 samples.

Results

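The transcriptome of 5 primary pancreatic tumours that were wild type at Grem1 was described on its own, out of 10 tumours in the series. They were the samples titled as Grem1wt/wt tumours 1 to 5, and all 5 entered every result. They arose in KPF mice, which develop pancreatic cancer, on the C57BL/6J background, and the labels do not spell out the alleles behind that abbreviation. From 5 weeks of age they received the vehicle, peanut oil, once a day for 5 days, and the protocol puts the age of the mice used at 6 to 12 weeks. The other 5 tumours, from KPF mice labelled Grem1-deleted and given tamoxifen at 100 mg/kg on the same schedule, were used only for a measure of variability and a check of Grem1. The samples are described as bulk tumour tissue, whereas the extraction protocol speaks of sorted cells, and the labels do not settle which applies. Sex, batch and date are not named. Each tumour also carries an ID number, 36 for tumour 1, 38 for tumours 2 and 3 and 40 for tumours 4 and 5, whose meaning is not stated. The tumours are described as biological replicates without a statement that each came from a separate animal, so the SDs below measure the spread between these samples.

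A pancreatic tumour is a mixture. Malignant epithelium of ductal type lies in a dense stroma of fibroblasts and collagen with macrophages, vessels and lymphocytes, and remnants of the normal gland are often interspersed. Acinar cells of the gland make digestive enzymes under the transcription factor complex PTF1, which contains Ptf1a and Rbpjl, and islet cells make hormones such as insulin and glucagon. In bulk RNA, fewer cells of a type and less RNA per cell cannot be told apart, so the marker levels below are RNA levels and not cell fractions. Counts of list genes highest or lowest in a tumour stand without the share over all genes, which was not counted.

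The libraries held 10159891 to 16650696 estimated counts, and 23026 to 23972 genes were detected in each. Levels are given in CPM, which correct each library for depth and composition, used to compare a gene between tumours, and in TPM, which also account for gene length and were used to compare genes with each other. A level of 1 CPM rested on 9.92 to 16.3 counts. A gene listed at 0 CPM could have had up to 0.184 to 0.302 CPM, the level of 3 counts, by counting error alone. In all 5 tumours, 14739 genes reached 1 CPM, of which 13320 were protein-coding. The number was 10092 at 10 CPM, 1716 at 100 CPM and 49 at 1000 CPM.

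Secreted, stromal, macrophage and mitochondrial transcripts headed the abundance ranking in these tumours. Clu, which encodes the secreted chaperone clusterin, took more counts than any other gene in each of the 5 tumours, 1.42% ± 0.0885 of the total (SD, n = 5). The leading 10 genes of each tumour took 7.17% ± 0.460, the leading 100 took 19.5% ± 1.10 and the leading 1000 took 48.4% ± 0.731 (SD, n = 5). Mitochondrially encoded genes made up 2.08% ± 0.227 of counts, ribosomal protein genes 3.75% ± 0.295 and collagens 3.22% ± 0.593 (SD, n = 5).

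Ranked per length, mt-Co1, a subunit of cytochrome c oxidase, had the highest mean at 16364 TPM ± 2133 (SD, n = 5), and Clu followed at 13163 TPM ± 797. Clu lay within 12116 to 13876 TPM. Ctrb1, the precursor of the digestive protease chymotrypsin B, ranked next after mt-Co2 at 9450 TPM, yet its SD of 12705 TPM exceeded its mean: its level was 24.1 TPM in tumour 1 and 30345 TPM in tumour 5. Among the other leaders, the translation factor Eef1a1 stood at 8006 TPM ± 513. Apoe, a lipid carrier made by macrophages among other cells, stood at 5880 TPM ± 1612, and Lyz2, the lysozyme of macrophages and neutrophils, at 5309 TPM ± 1487. Spp1, the secreted phosphoprotein osteopontin, stood at 5194 TPM ± 678 (SD, n = 5 for each). Tmsb4x, which binds actin monomers, the ferritin light chain Ftl1 and the calcium-binding S100a11 were also among the 20 leaders, as were the mitochondrial genes mt-Cytb, mt-Nd1, mt-Nd4, mt-Co3 and mt-Atp8 and the ribosomal protein gene Rplp1.

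By counts, which favour long transcripts, matrix genes moved to the front. Fn1, which encodes fibronectin, took 8084 CPM ± 992, and the fibrillar collagens Col1a1, Col3a1 and Col1a2 took 7607 ± 2277, 6835 ± 1841 and 6116 ± 1370 CPM (SD, n = 5). Sparc, a collagen-binding matrix protein, took 3726 CPM ± 779, and Dmbt1, a mucosal scavenger receptor protein, took 2448 CPM ± 1814 (SD, n = 5). Dmbt1 read 764 CPM in tumour 1, 3509 in tumour 2, 2037 in tumour 3, 904 in tumour 4 and 5027 in tumour 5, so tumours 2 and 5 stood high and tumours 1 and 4 low.

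Some of the leading features were of uncertain origin. Gm10925 and Gm28437 are annotated as unprocessed pseudogenes on chromosome 1, next to each other, and estimated counts are divided between near-identical copies, here of mitochondrial genes. CT010467.1 is annotated as ribosomal RNA (chr17:39846353-39848827, minus strand, GRCm38) and overlaps AY036118 and Gm42418. Its level was 9108 CPM in tumour 1, 4344 in tumour 2, 5861 in tumour 3, 3302 in tumour 4 and 3339 in tumour 5. Tumour 1 thus stood highest for this ribosomal feature, and ribosomal RNA genes together took 0.374% to 1.01% of counts.

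**Figure D1:**
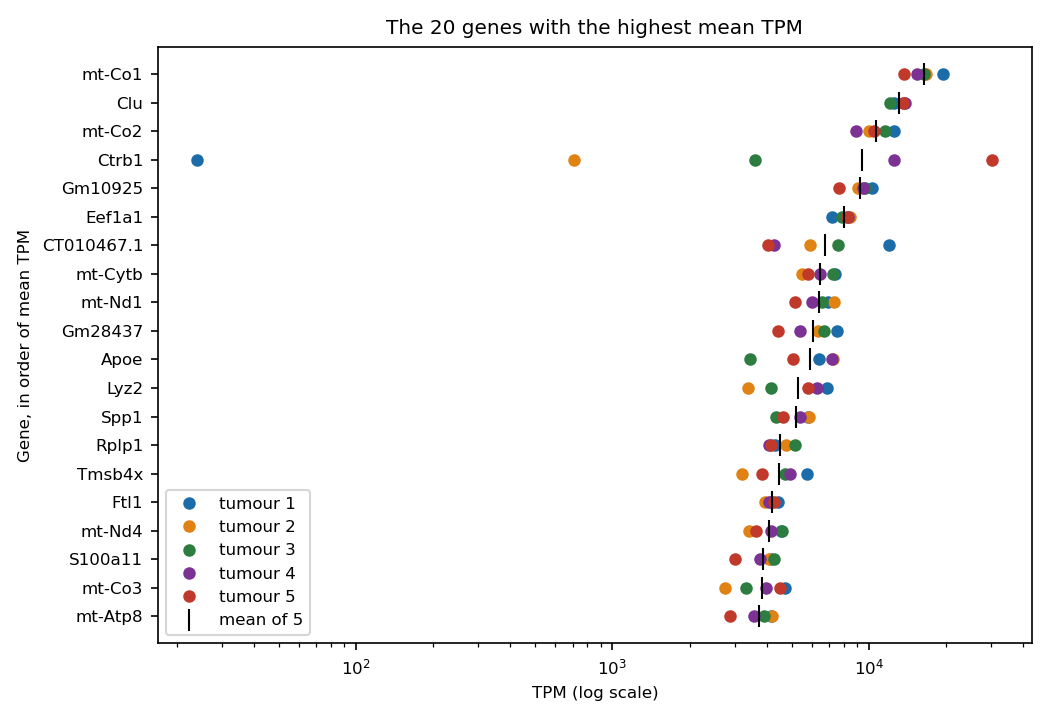
TPM (log axis) of the 20 genes with the highest mean TPM, with 1 point per tumour and a black tick for the mean of 5. The points of Clu lie within 12116 to 13876 TPM, whereas those of Ctrb1 run from 24.1 to 30345 TPM.

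Markers of the labelled tissue were present in each tumour. Epcam, an adhesion protein of epithelia, lay at 528 CPM in tumour 1, 565 in tumour 2, 530 in tumour 3, 609 in tumour 4 and 560 in tumour 5. Its SD of log2 CPM was 0.08. Simple-epithelium keratins had an SD of log2 CPM of 0.10 for Krt18, 0.14 for Krt7, 0.21 for Krt8 and 0.26 for Krt19, the last 2 above the median of 0.18 over all genes. The 15 ductal and tumour epithelium genes summed to 5305 to 6707 CPM and had a median SD of 0.23. None reached 1, as 1.99% of all genes did, and 11 of the 15 lay above the median of all genes. The duct factor gene Sox9 and the chloride channel gene Cftr had an SD of 0.36 and 0.39.

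The 16 fibroblast genes summed to 17049 CPM in tumour 2, 20243 in tumour 1, 24267 in tumour 5, 29284 in tumour 3 and 30710 in tumour 4. That is a 1.80-fold range, and no member reached an SD of 1, as 1.99% of all genes did. The median SD of the 16 was 0.37 against 0.18 over all genes, and 15 of them lay above the latter. Col1a1 ranged from 5099 CPM in tumour 2 to 10492 CPM in tumour 4. Dpt, a dermatopontin that binds collagen fibres, had the largest SD of these genes at 0.74, with 18.7 CPM in tumour 2 and 46.0 to 66.0 CPM elsewhere. The 9 contractile genes summed to 552 CPM in tumour 2 and to 739 to 938 CPM in the others, and 6 of them were highest in tumour 3 and 3 in tumour 1. Acta2 (smooth muscle actin) and Tagln were among the 3, at 140 to 313 and 137 to 289 CPM. Among 8 inflammatory fibroblast genes the chemokine Cxcl12 split the tumours, at 112 CPM in tumour 1 and 146 in tumour 3 against 41.8 to 45.3 in the other 3.

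The 15 macrophage genes summed to 3778 to 6379 CPM. Lyz2 read 2799 CPM in tumour 1, 1319 in tumour 2, 1719 in tumour 3, 2609 in tumour 4 and 2558 in tumour 5. C1qa, a complement component made by tissue macrophages, read 651, 433, 448, 759 and 639 CPM in the same order. Tumours 2 and 3 were thus the 2 lowest for both. Cd163, a haemoglobin scavenger receptor, had the order changed, with tumour 3 lowest at 26.9 CPM and tumours 2 and 4 at 83.4 and 105 CPM. All 13 blood endothelial genes were measured at a mean of 5 CPM or more, and 11 of them were lowest in tumour 2 and 9 highest in tumour 1. Cdh5, the cadherin of endothelial junctions, read 142, 62.2, 134, 138 and 103 CPM in tumours 1 to 5. Flt1, a receptor of vascular endothelial growth factor, did not share that low value in tumour 2 and lay within 79.3 to 89.1 CPM, with an SD of 0.07.

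Gastric-type genes were expressed in all 5 tumours. Gkn3, a gastrokine, read 321 CPM in tumour 1, 203 in tumour 2, 332 in tumour 3, 377 in tumour 4 and 326 in tumour 5. Gkn1, another gastrokine, was far less even, at 608, 87.4, 494, 320 and 146 CPM. The gel-forming mucin Muc5ac read 216, 76.7, 535, 251 and 198 CPM. Tumour 2 was lowest for all 3 genes and for 7 of the 12 in the list. Another 3 were lowest in tumour 4, among them Pgc, which was highest in tumour 2. Of the 10 gastric-type genes with a mean of 5 CPM or more, 4 had an SD of log2 CPM of 1 or more (1.99% of all genes). Markers of small intestine were close to absent: the 10 genes summed to 1.01 to 5.67 CPM, and the brush border enzyme genes Sis and Treh were at 0 in each tumour. Skeletal muscle genes summed to 1.01 to 4.36 CPM. Of the 8 hepatocyte genes, Cps1 was at 0 in each tumour, while 6 were highest in tumour 1, where the fibrinogen chain Fgb stood at 22.5 CPM against at most 0.0900 CPM in the other 4.

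**Figure D2:**
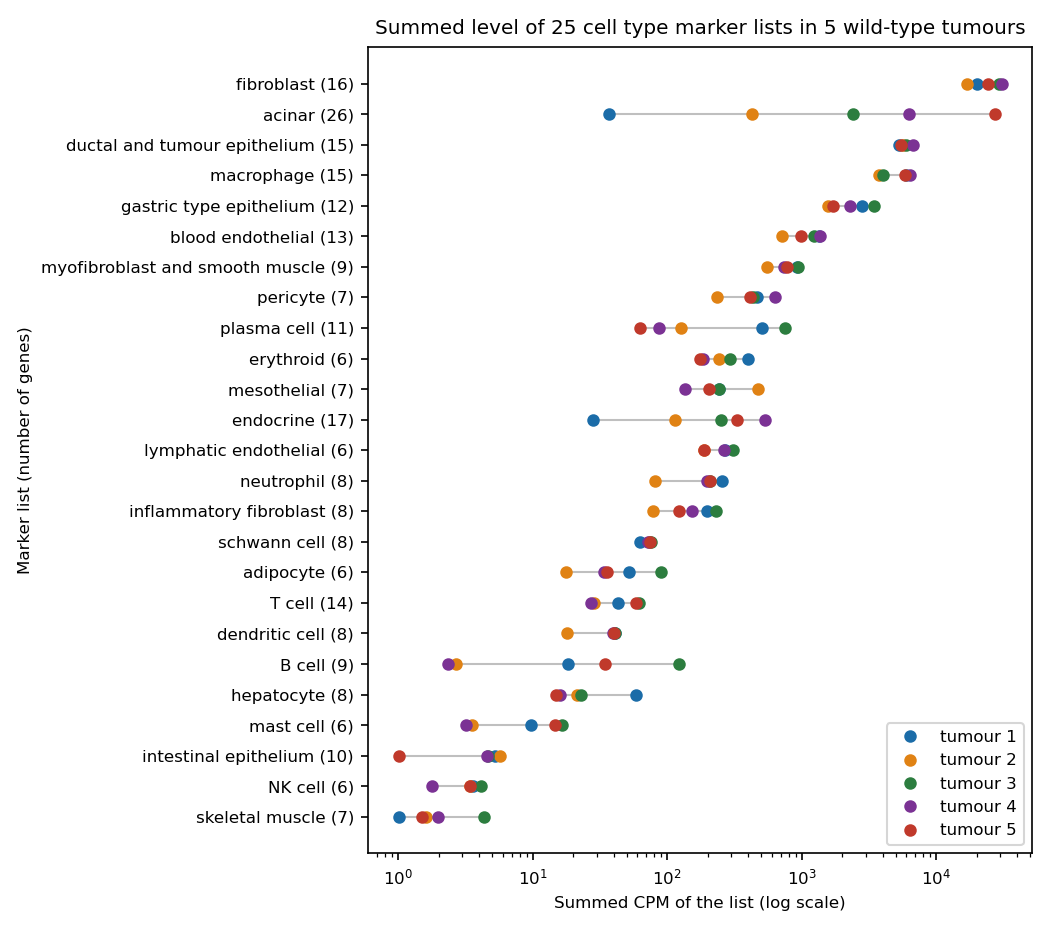
Summed CPM (log axis) of 25 marker lists, each row a list with its number of genes and each point 1 tumour. The acinar row runs from 37.1 to 27527 CPM, against 5305 to 6707 CPM for the ductal and tumour epithelium row. Rows differ in gene number and gene length and are to be compared along the row only.

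Most genes varied little between the 5 tumours, and a small set varied by orders of magnitude. Variation is given as the SD of log2 CPM over the 5 tumours, for the 12764 genes with a mean of 5 CPM or more. Its median was 0.18, with a 10th percentile of 0.08 and a 90th percentile of 0.46. In 254 genes, or 1.99%, it was 1 or more. The share was 3.63% of the 4082 genes at 5 to 20 CPM, 1.06% of 6540 genes at 20 to 100 CPM, 1.68% of 2078 genes at 100 to 1000 CPM and 3.13% (2 genes, Ctrb1 and Dmbt1, named here after their values were seen) of the 64 genes above that. Counting error alone would give a median SD of 0.12 in the lowest of these classes, where the observed median was 0.25, and of 0.03 at 100 to 1000 CPM, where it was 0.14. The common biological coefficient of variation, the relative spread beyond counting error fitted by edgeR over 15080 genes, was 0.209. By gene class, none of 86 ribosomal protein genes and none of 15 mitochondrial genes reached an SD of 1, against 3 of 31 collagens and 8 of 8 immunoglobulin genes. For the 15 mitochondrial genes this is near the share of 1.99% over all genes. Their median SD of 0.20 was above the 0.18 of all genes. The median was 0.12 for ribosomal protein genes, 0.47 for collagens and 2.49 for immunoglobulin genes.

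**Figure D3:**
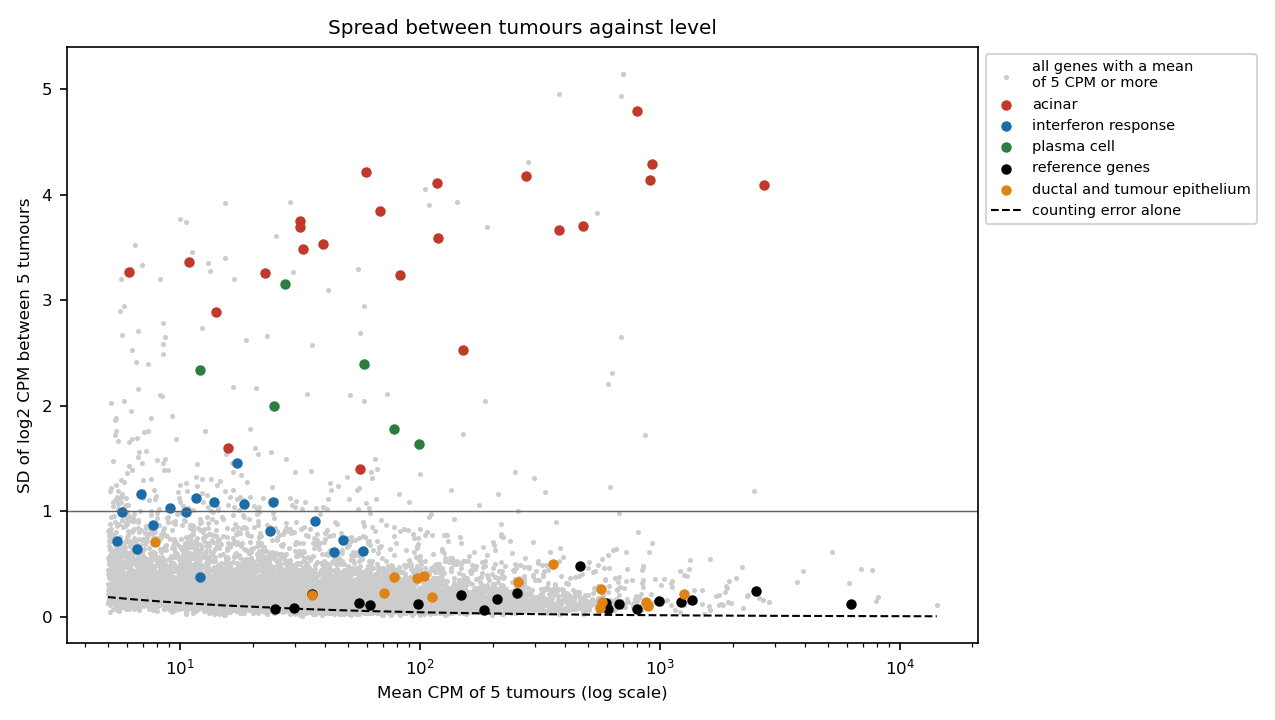
SD of log2 CPM between the 5 tumours against mean CPM (log axis), with 1 point per gene, coloured for 5 lists. The dashed line is the SD from counting error alone and the solid line marks an SD of 1. All 23 acinar genes shown lie above the solid line, and all 15 ductal and tumour epithelium genes lie below it.

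Acinar genes were 11 of the 25 most variable genes and 23 of the 254 with an SD of 1 or more. The 26 genes of the list summed to 37.1 CPM in tumour 1, 425 in tumour 2, 2419 in tumour 3, 6256 in tumour 4 and 27527 in tumour 5, so no 2 tumours were close and the extremes lay 742-fold apart. A mean of 5 CPM was reached by 23 of the 26 genes, and all 23 had an SD of 1 or more, with a median of 3.66 against 0.18 over all genes. The level was highest in tumour 5 for 24 of the 26 and lowest, or tied for lowest at 0, in tumour 1 for 24.

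The bases upstream of acinar genes are shown because the PTF1 complex is known to bind an E-box, CANNTG, next to a TTTCCC-type box. The part of PTF1 in the differences between tumours was not tested. The 250 bases before the annotated start of Ctrb1 and Cela1, as given by RefSeq on build GRCm38.p6, are printed 5′ to 3′ on the gene's strand, with every CANNTG and TTTCCC match on either strand in capitals. Both were chosen after the search, from the genes that hold the pair 4 bases apart, so they do not stand for the list. Ctrb1 is the most abundant gene of the list, and Cela1 its least variable enzyme gene with a mean of 5 CPM or more. Ctrb1 lies at chr8:111691011-111691260 (minus strand) and Cela1 at chr15:100687921-100688170 (minus strand).
Ctrb1: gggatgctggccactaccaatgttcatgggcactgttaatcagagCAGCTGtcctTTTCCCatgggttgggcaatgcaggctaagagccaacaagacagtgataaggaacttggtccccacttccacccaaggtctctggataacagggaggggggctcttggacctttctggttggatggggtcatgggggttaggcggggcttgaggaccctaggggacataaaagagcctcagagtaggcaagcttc
Cela1: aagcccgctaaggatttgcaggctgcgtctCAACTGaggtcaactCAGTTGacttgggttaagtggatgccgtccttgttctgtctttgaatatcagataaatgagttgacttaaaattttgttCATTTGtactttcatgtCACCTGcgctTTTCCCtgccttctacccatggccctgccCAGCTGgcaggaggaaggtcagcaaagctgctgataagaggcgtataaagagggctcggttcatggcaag

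Both windows hold an E-box and a TTTCCC in that order, separated by 4 bases. Of the 22 acinar list genes with a promoter in the table, 3 held this arrangement (Cela1, Ctrb1 and Prss1), as did 0.0925% of 27025 genes in windows of the same length. Gaps of 5, 6, 14, 15 and 16 bases were searched as well, with 0, 0, 0, 1 and 0 acinar genes. With any gap of 3 to 17 bases, in either order and on either strand, 5 of the 22 held the pair (Cel, Cela1, Cpa1, Ctrb1 and Prss1), against 3.26% of all genes, and against 4.02% when the table's full windows of 300 bases were read. The gap of 4 bases was singled out after these searches. CANNTG alone was in 18 of the 22 (69.3% of all genes), its form CACCTG in 13 (19.4%), TTTCCC in 7 (24.4%), TTTCCCA, which contains it, in 5 (7.77%), TGGGAA, contained in the reverse complement of TTTCCCA, in 13 (24.1%) and TATAAA in 8 (14.3%). These patterns were read on both strands, and a match describes letters, not binding.

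Protease precursors spanned wide ranges. Ctrb1 read 6.52 CPM in tumour 1, 186 in tumour 2, 994 in tumour 3, 3464 in tumour 4 and 8915 in tumour 5, a 1367-fold span. Prss2, a trypsinogen, read 1.63, 26.7, 231, 781 and 3563 CPM, and the carboxypeptidase precursor Cpa1 read 1.63, 18.4, 120, 150 and 1599 CPM. Tumours 3 and 4 were close for Cpa1 but not for Prss2. The lipase-type genes divided. Cel, the bile salt-activated lipase, read 2.17, 43.8, 216, 953 and 1162 CPM, so tumours 4 and 5 were near each other. Pnlip, the pancreatic triglyceride lipase, read 0.233, 0.0900, 0.988, 1.96 and 155 CPM, so that it exceeded 1.96 CPM in tumour 5 alone. Zg16, a zymogen granule protein, behaved in the same way, with 294 CPM in tumour 5 and at most 2.31 CPM in the others. Cela1, an elastase and the least variable of these enzymes, read 12.3, 27.7, 28.5, 36.8 and 175 CPM.

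The transcription factor genes of the acinar programme were low in level. Ptf1a was at 0 CPM in tumours 1 and 2, and read 0.823 in tumour 3, 10.3 in tumour 4 and 19.5 in tumour 5. Rbpjl, its partner in the complex, read 0.0777, 2.70, 6.18, 52.0 and 101 CPM. Nr5a2, a nuclear receptor of the exocrine pancreas, was highest in tumour 4 rather than 5, at 2.56, 4.86, 8.23, 34.1 and 29.4 CPM. Tumours 4 and 5 thus stood above the other 3 for each of these factors. Among the 14 pancreas and foregut factor genes outside the acinar list with a mean of 5 CPM or more none had an SD of 1. Over all genes 1.99% had one, so this is near that share. The median SD of the 14 was 0.29 against 0.18 over all genes, and 10 of them lay above the latter. Hnf4a was one of the more even ones, within 75.6 to 95.4 CPM.

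Members of the Reg family, secreted lectins of the injured exocrine pancreas, were also lowest in tumour 1 and highest in tumour 5. Reg1 read 45.3 CPM in tumour 1, 83.8 in tumour 2, 227 in tumour 3, 626 in tumour 4 and 2046 in tumour 5. Reg3b read 47.9, 58.8, 213, 460 and 2361 CPM. Reg2 and Reg3a reached 2231 and 480 CPM in tumour 5, against 2.10 and 0.233 CPM in tumour 1. The amylase genes Amy2a2, Amy2a3 and Amy2a4 had the largest SD of all genes ranked, 5.14, at 0.233, 2.88, 143, 165 and 3198 CPM. Copies of amylase cannot be separated: these 3 had identical values in each tumour, while Amy2a5 was at 0 CPM in tumour 3, where those 3 copies read 143 CPM each. The trypsin family genes Try4 and Try5 are likewise close copies and their split is uncertain.

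The 25 most variable genes were chosen by SD, so their SDs are a description. Acinar, other exocrine and Reg genes supplied 21 of them, each highest in tumour 5. They were Amy2a2, Amy2a3, Amy2a4, Amy2a5, Try4, Try5, 2210010C04Rik, Prss2, Zg16, Cpb1, Pnliprp1, Cela2a, Ctrb1, Reg2, Reg3a, Klk1, Spink1, Rnase1, Sycn, Cel and Pnlip. The rest were the sex-linked Xist, Ddx3y and Eif2s3y, and Cfd, the adipocyte protease adipsin. Without tumour 5, the SD of Zg16 was 1.498 in place of 4.22 and that of Pnlip 1.43 in place of 3.69, whereas without tumour 1 that of Ctrb1 was 2.41 in place of 4.09.

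Endocrine genes varied too, with another order of tumours. The 17 genes summed to 28.2 CPM in tumour 1, 115 in tumour 2, 251 in tumour 3, 533 in tumour 4 and 333 in tumour 5, and 15 of the 17 were highest in tumour 4. Gcg, which encodes proglucagon, read 0.621, 30.1, 52.3, 122 and 87.2 CPM, and Ins2 read 4.11, 14.2, 52.3, 124 and 96.7 CPM. The acinar sum is 4.40 times as high in tumour 5 as in tumour 4, whereas the endocrine sum is 1.60 times as high in tumour 4 as in tumour 5.

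**Figure D4:**
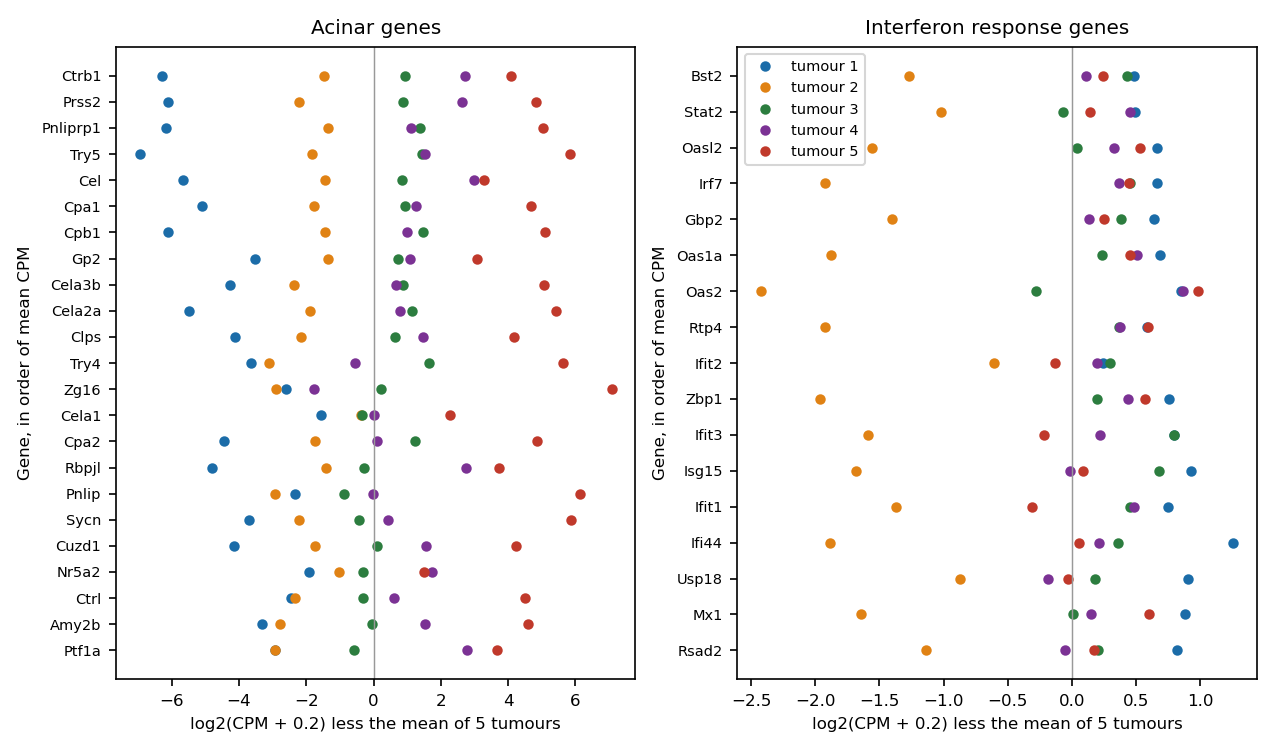
Log2 of CPM plus 0.2, less the mean of the 5 tumours, for 23 acinar genes (left) and 17 of the 18 interferon response genes (right) with a mean of 5 CPM or more, 1 point per tumour. On the left tumour 1 lies lowest and tumour 5 highest for nearly every gene; on the right tumour 2 lies lowest for each gene.

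Interferon response genes set tumour 2 apart. The 20 genes summed to 501 CPM in tumour 1, 125 in tumour 2, 396 in tumour 3, 398 in tumour 4 and 406 in tumour 5. Each of the 20 was lowest in tumour 2 and 16 were highest in tumour 1. A mean of 5 CPM was reached by 18, of which 7 had an SD of 1 or more (1.99% of all genes), with a median of 0.95. Of all 254 genes with such an SD, 73 were lowest in tumour 2. Oas2, an antiviral oligoadenylate synthetase, read 23.5, 2.25, 10.6, 23.7 and 25.7 CPM in tumours 1 to 5, and Irf7, a transcription factor of the pathway, read 32.9, 5.31, 28.5, 26.8 and 28.3 CPM. Bst2, or tetherin, read 61.4, 18.0, 58.9, 47.3 and 51.9 CPM. For all 3, the other 4 tumours lay well above tumour 2.

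Interferon-inducible promoters are known to carry an interferon-stimulated response element with paired GAAA-type repeats. The letters GAAA, any 2 bases and GAAA, on either strand, were in the 250 upstream bases of 9 of the 13 list genes with a promoter in the table, against 3.46% of 27025 genes. The same letters followed directly by CT were in 6 of the 13 (0.255% of all genes), and TATAAA was in 3 of the 13 (14.3% of all genes). The windows of Isg15, a ubiquitin-like protein, and Bst2 were chosen from the 9 that hold a match and are printed for comparison with the acinar windows, with the matches in capitals. They lie at chr4:156200819-156201068 and chr8:71537473-71537722, both on the minus strand.
Isg15: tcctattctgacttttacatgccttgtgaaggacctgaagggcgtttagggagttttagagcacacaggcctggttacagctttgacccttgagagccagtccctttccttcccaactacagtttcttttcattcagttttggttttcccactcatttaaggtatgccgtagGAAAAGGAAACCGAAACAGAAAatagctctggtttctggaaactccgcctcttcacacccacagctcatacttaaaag
Bst2: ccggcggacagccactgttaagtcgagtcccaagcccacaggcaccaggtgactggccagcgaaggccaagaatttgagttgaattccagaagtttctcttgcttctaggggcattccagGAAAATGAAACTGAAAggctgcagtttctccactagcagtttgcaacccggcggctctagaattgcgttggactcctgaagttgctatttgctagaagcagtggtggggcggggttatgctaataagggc

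In Isg15 the capitals cover 3 overlapping matches and in Bst2 they cover 2. Isg15 read 14.8 CPM in tumour 1, 2.25 in tumour 2, 12.4 in tumour 3, 7.61 in tumour 4 and 8.17 in tumour 5.

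Several immune and vessel markers, though not all immune lists, were low in tumour 2 as well. B2m, the light chain of MHC class I, read 593, 250, 464, 488 and 510 CPM, Mmp9, a protease of neutrophils and macrophages, read 117, 36.7, 117, 151 and 114 CPM, and the dendritic cell list summed to 40.8, 18.1, 41.0, 39.3 and 40.4 CPM. The neutrophil list summed to 255, 81.7, 208, 196 and 208 CPM, although Ly6g, a defining neutrophil antigen, was at most 0.0823 CPM in any tumour. Mmp9 is one of the 8 genes of that list, of which 4 were lowest in tumour 2 and 3 in tumour 4. S100a9, another of them, was lowest in tumour 4, 6.55-fold below tumour 1. Of the 15 macrophage genes, 9 were lowest in tumour 2. The part of these cell types in the interferon values was not tested. Tumour 2 was highest for 10 of 20 hypoxia and glycolysis genes and lowest for 6, so the list had no single direction there. The glycolytic enzyme gene Pkm was among the high ones, at 1523 CPM against 903 to 1103 CPM elsewhere. Tumour 2 was also highest for Msln, a mesothelial and tumour surface antigen, at 426 CPM against 92.6 to 203 CPM. Chil3, a chitinase-like protein of macrophages, stood at 567 CPM in tumour 2 and at 24.5 to 60.8 CPM in the other 4.

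B cell genes set tumour 3 apart, whereas T cell genes were about as high in tumour 5. The 9 B cell genes summed to 18.2 CPM in tumour 1, 2.70 in tumour 2, 122 in tumour 3, 2.33 in tumour 4 and 34.3 in tumour 5, and all 9 were highest in tumour 3. The 11 plasma cell genes summed to 508, 126, 755, 87.6 and 62.7 CPM, and 9 were highest in tumour 3. Ighm, the heavy chain of IgM, read 15.8, 2.52, 238, 8.35 and 28.1 CPM, whereas Igha, that of IgA, was highest in tumour 1, at 282, 81.5, 69.7, 49.3 and 11.9 CPM. Tumours 1 and 3 therefore had the highest sums for plasma cell genes, with Ighm highest in tumour 3 and Igha in tumour 1. Ighg1, a heavy chain of IgG, was highest in tumour 3 and lay above the middle of its log2 range in tumours 1 and 3 alone. T cell genes were low throughout, summing to 27.0 to 62.2 CPM, with 8 of 14 highest in tumour 3 and 5 in tumour 5. Their sum was 62.2 CPM in tumour 3 and 58.8 CPM in tumour 5. The adipocyte genes were 6 of 6 highest in tumour 3 as well, and Cfd read 14.7, 0.180, 34.8, 0 and 0 CPM. Proliferation genes were also highest there, all 20 of them, though by little: Mki67 read 79.8, 67.6, 126, 94.0 and 119 CPM, and the list summed to 607 to 875 CPM.

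Sex-linked genes set tumour 4 apart. Xist, the RNA that coats the inactive X chromosome, read 861 CPM in tumour 1, 739 in tumour 2, 809 in tumour 3, 0.245 in tumour 4 and 1020 in tumour 5. The Y-linked helicase gene Ddx3y read 76.8 CPM in tumour 4 and at most 0.0900 CPM in the others, and Eif2s3y read 52.8 CPM there and 0 CPM in the others. Of the stress genes, 12 of 18 immediate early genes, 7 of 10 heat shock genes and 8 of 12 genes of the unfolded protein response were highest in tumour 4. Their ranges were narrower: Egr1, an immediate early transcription factor, read 58.7, 45.9, 120, 165 and 79.1 CPM. The share of all genes highest in tumour 4 was not counted. Among the 254 genes with an SD of 1 or more, 22 were highest there. None of these stress genes was among the 254, so that count is no background for them. The part of the sex-linked difference in the other genes was not tested.

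Grem1, which encodes a secreted antagonist of bone morphogenetic proteins and is intact in this group by label, read 15.5 CPM in tumour 1, 42.6 in tumour 2, 23.0 in tumour 3, 3.99 in tumour 4 and 9.48 in tumour 5. The extremes were 10.7-fold apart, and its SD of 1.28 stood at the 98.8th percentile of all genes. In the 5 tumours labelled Grem1-deleted, scaled on their own, Grem1 read 47.2, 111, 12.4, 6.92 and 23.7 CPM. The mean here was 18.9 CPM, below 3 of those 5 values, so its level did not show the deletion that the labels name. Counts per gene do not show which exons were read, and the labels were kept as given. Trp53, a tumour suppressor altered in many pancreatic cancer models, was even, at 72.6 to 97.8 CPM. Cdkn2a, a tumour suppressor locus, lay at 94.7 to 330 CPM, lowest in tumour 4 and highest in tumour 2, the same 2 tumours as for Grem1.

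A further 3 gene groups were put together after the variable genes had been seen, so their direction is fixed by that choice. Of 24 imprinted genes, 20 were highest in tumour 3 and 14 lowest in tumour 1. Igf2, a foetal growth factor, read 16.9, 1187, 1744, 181 and 313 CPM, and its neighbour H19 read 108, 1378, 1974, 594 and 260 CPM, so tumours 2 and 3 stood high for both. The neurofilament genes Nefl and Nefm shared that pattern, at 39.3 and 39.8 CPM in tumour 2, 23.5 and 23.9 in tumour 3 and at most 1.72 and 2.33 in the others. Nefl and Nefm overlap on opposite strands, so their reads may not be told apart and they do not count as separate observations. The neuronal gene Th was at most 0.0614 CPM and Elavl3 was at 0 CPM in each tumour. Of 16 clock genes, 10 were highest in tumour 4, including Per2, at 50.8 CPM against 7.30 to 28.1 CPM elsewhere. Dbp, a clock output factor, read 2.33, 10.4, 19.8, 39.5 and 30.8 CPM, and Arntl, the core activator, was highest in tumour 2 at 24.8 CPM and lowest in tumour 4 at 8.53 CPM.

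At the other end, some genes hardly differed. Among 4766 genes with a mean of 50 CPM or more, Traf3, a signalling adaptor, had the smallest SD at 0.01, with 74.4 to 76.3 CPM. The 15 smallest also included Gpbp1, Hjurp, Ppp3cb, Ythdf3, Wbp2, Fam168b, Cd99l2, Rnf20, Nrd1, Spr, Akr1a1, Suclg1, Mbd2 and Rnf6. In 14 of the 15 the SD was below that of counting error, so their order among themselves carries no information. Of 20 genes in common use as references, 5 had an SD above the median of all genes. Sdha, a respiratory chain subunit, was the most even at 0.06 and B2m the least even at 0.48, with Gapdh at 0.15 and Actb at 0.24.

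Compared in pairs by the number of genes that differed 2-fold or more, tumours 4 and 5 were the closest, with 284 genes (2.23%), and tumours 1 and 2 the farthest, with 906 genes (7.10%). By the root mean square difference of log2 CPM, tumours 4 and 5 were again the closest, at 0.47, but tumours 1 and 5 were the farthest, at 0.71 against 0.62 for tumours 1 and 2, so the farthest pair depends on the measure. Tumours 4 and 5 share an ID number, and so do tumours 2 and 3, which differed at 615 genes. Each of the 4 pairs with tumour 2 had 615 or more such genes, and no other pair had more than 492. As a check for duplicate libraries, chi-square over degrees of freedom was 25.9 to 59.0, and no pair was within sampling noise. The 254 variable genes were most often highest in tumour 5 (91 genes) and tumour 3 (72 genes), and most often lowest in tumour 1 (119 genes) and tumour 2 (73 genes).

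**Figure D5:**
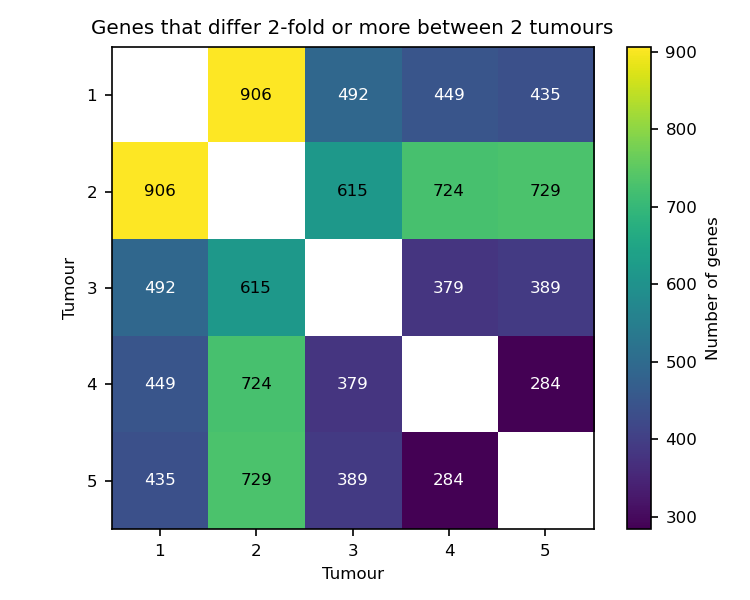
Number of genes that differ 2-fold or more between 2 tumours, with the 5 tumours on both axes and colour and digits for the number. Row 2 holds the high numbers, 615 to 906, and the pair of tumours 4 and 5 the lowest, 284.

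Ranking genes by the same SD in the 5 tumours labelled Grem1-deleted, taken alone, gave a list of 200 that shared 62 genes, or 31.0%, with the 200 most variable wild-type ones, a list length of 1.57% of the genes ranked. All 25 most variable wild-type genes were in both. The last wild-type gene inside the 200 and the first outside had an SD of 1.112 each. In the labelled-deleted tumours the acinar sum ran from 327 to 20840 CPM, and the median SD over all genes was 0.27, with 1208 genes at 1 or more. This difference in spread was not tested.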

How the data were processed

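PolyA RNA of 5 Grem1 wild-type and 5 labelled-deleted KPF tumours was sequenced after KAPA mRNA HyperPrep preparation on an Illumina NovaSeq instrument, per the labels' protocols. The authors deposited estimated counts per gene, which need not be whole (7.85% of wild-type values were not), and, per tumour, normalized log2 values whose transformation is not named. The submitters' processing notes list RSEM 1.3.3, HISAT2 2.2.1, DESeq2 1.32.0, bcl2fastq 2.0 and FastQC 0.11.9 with build mm10. Annotation release and strandedness were not stated in any source used, so reads of overlapping and antisense genes, such as Xist and Tsix, may not have been told apart.

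Counts were rounded and each group scaled alone with TMM in edgeR 4.0.16 (R 4.3.3), which also gave the coefficient of variation; DESeq2 1.42.0 served as an alternative scaling. Log2 CPM had a prior count of 2, and spread was ranked for genes with a mean of at least 5 CPM. TPM used merged exon lengths of GENCODE M21 (GRCm38), which held 55227 of 55487 gene IDs. With 1 group, nothing was tested between groups. Dixon's critical value served only to mark single tumours that lay apart. Depth is given with the results. On simulated counts for 12764 genes and these 5 libraries, genes given an SD of 1, 2 and 4 had a median recovered SD of 0.99, 1.98 and 3.63, so very large SDs are understated.

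The tumours, the 38 lists (25 of cell types) and the naming rule were chosen with earlier results of these data known: the 20 genes highest in CPM and in TPM, the 25 largest SDs, the 15 smallest at a mean of at least 50 CPM, and per list the 3 highest, 2 most variable and undetected members. Genes outside this rule, chosen as examples, and the promoter motifs were picked after values were seen. Some list members are not reported here by name, though list sums and counts hold them. Alternatives were other scalings, priors, filters, the deposited log2 values, other spread measures, longest-transcript lengths and leaving out each tumour.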

Additional observations from a re-analysis of the deposited data

Results flagged for a closer look

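The gap of 1 tumour to the next was divided by the range of all 5 on the log2 scale. Among 185 named genes with a mean of 5 CPM or more and 41 lists, this ratio exceeded Dixon's critical value of 0.71 in 15 genes and 7 lists. A small gap can pass where the range is small. Chance alone passes that value in about 1 in 20 groups, a rate that does not hold here, since many of the genes were named for their large or small spread and they are not independent of each other. Of the 22, 12 concerned tumour 2.

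Tumour 2 stood low for interferon genes and for some immune genes and lists. Other immune lists summed lower in tumour 4 than in tumour 2. These were T cell (27.0 against 28.5 CPM), B cell (2.33 against 2.70), NK cell (1.78 against 3.42), mast cell (3.19 against 3.51) and plasma cell (87.6 against 126). The interferon response list summed to 125 CPM against 396 to 501 in the others, with Bst2 at 18.0 CPM (47.3 to 61.4) and B2m at 250 CPM (464 to 593). The neutrophil list summed to 81.7 CPM (196 to 255) and the dendritic cell list to 18.1 CPM (39.3 to 41.0), with Mmp9 at 36.7 CPM (114 to 151), the chemokine Ccl7 at 4.23 CPM (15.5 to 22.3) and the chemokine receptor Ccr7 at 4.50 CPM (10.9 to 14.1). Fabp4, a fatty acid carrier, was at 16.4 CPM (33.1 to 39.4), Dpt at 18.7 CPM (46.0 to 66.0) and Gkn3 at 203 CPM (321 to 377). Gapdh, a glycolytic enzyme, was high instead, at 1180 CPM (919 to 972). Which of these low values go with fewer immune cells was not tested.

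Tumour 4 stood apart for sex-linked genes: Xist at 0.245 CPM (739 to 1020), Ddx3y at 76.8 CPM (at most 0.0900), Eif2s3y at 52.8 CPM (0 in the others) and the list sum at 181 CPM (740 to 1020). Its NK cell list summed to 1.78 CPM (3.42 to 4.12), a level of few counts. Tumour 1 was low for Gcg at 0.621 CPM (30.1 to 122) and for the Schwann cell list at 62.5 CPM (71.9 to 75.4). Tumour 3 was high for Ly6d, a surface antigen of squamous-type epithelium and lymphoid precursors, at 46.9 CPM (6.35 to 8.55), and low for Hjurp at 97.8 CPM (99.9 to 100.3), a gap of about 2% in a gene whose SD of log2 CPM, 0.015, was below the 0.041 of counting error alone. Tumour 5 was low for the intestinal list at 1.01 CPM (4.54 to 5.67), whose levels are near the counting floor.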

How the results depend on the processing

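No paired analysis was possible because the results come from no test between groups. The number of genes with an SD of 1 or more depended on the filter, at 599 with a mean of at least 1 CPM and 106 with at least 20 CPM, and fell to 113 with the deposited log2 values, by the authors' unnamed transformation; the cause was not tested. The leading 100 genes took 29.9% with TPM in place of counts. Other scalings, prior counts, a coefficient of variation of CPM in place of the SD, other dispersions and gene classes left the other main values within 1.5 times, or within 1 SD for the share of counts. Leaving out each tumour gave 14822 to 14950 genes at 1 CPM, 19.1% to 19.9% for the leading 100, 211 to 302 genes with an SD of 1 or more, a coefficient of variation of 0.191 to 0.220 and 24.0% to 33.0% shared with the labelled-deleted tumours. Of the 25 most variable genes, 21 to 25 stayed among the 200 most variable without 1 tumour. Of the 41 mean list sums, 3 moved by over 1.5 times without 1 tumour: the acinar one from 7333 to 2297 CPM without tumour 5, and without tumour 3 the B cell one from 35.9 to 14.4 CPM and the plasma cell one from 308 to 196 CPM. Other scalings moved 0 of 82 that far. Of 280 alternatives of single-gene SDs, 32 moved by over 1.5 times, 12 of them by scaling alone. Without tumour 4 the SD of Xist was 0.19 and that of Ddx3y 0.30, from 4.94 and 3.92. With longest-transcript lengths, 16 of the 20 genes highest in TPM stayed. Depth limits genes below about 1 CPM and the smallest SDs.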

Other observations

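Several small programmes not described above differed in which tumour was high. The lymphoid chemokine Ccl21a read 56.0 CPM in tumour 1, 22.2 in tumour 2, 70.6 in tumour 3, 17.6 in tumour 4 and 1.61 in tumour 5, although its near-identical copies make it uncertain. Lyve1, a hyaluronan receptor of lymphatic vessels and some macrophages, had another order, at 24.6, 18.5, 31.2, 67.6 and 57.7 CPM, and Prox1, which sets lymphatic identity, was even at 16.2 to 19.8 CPM. Haemoglobin genes were highest in tumour 1, with Hbb-bs at 163, 93.0, 107, 69.2 and 64.9 CPM. Clca1, a goblet-type mucus protein, read 66.0 CPM in tumour 1, 0.720 in tumour 2, 68.0 in tumour 3, 27.4 in tumour 4 and 15.02 in tumour 5. Olfm4, a secreted glycoprotein of crypt-like epithelium, read 4.11, 23.0, 70.1, 12.8 and 27.8 CPM, so tumour 3 was highest for both. Sprr1a, a cornified envelope gene, was also highest in tumour 3, at 54.9 CPM against 8.29 to 23.0 CPM, while the squamous genes Krt5 and Trp63 stayed at or below 0.270 CPM in each tumour.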
